A study of Mus musculus with 18 samples.

Results

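The 10 genes described here encode the main channels and transporters with which gland epithelium moves salt and water: the water channels Aqp5 and Aqp4, the chloride uptake cotransporter Slc12a2, the chloride channels Ano1 and Cftr, the potassium channels Kcnn4 and Kcnma1, the sodium bicarbonate cotransporter Slc4a4, and the calcium release channels Itpr2 and Itpr3. They were chosen by name for this role, with earlier results of these data known, and all 10 were found among the 54232 genes counted. Gene positions below are those of GENCODE M21 on GRCm38.

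In the secretory model of exocrine glands, nerve signals raise inositol trisphosphate in the acinar cell, which opens receptors of the Itpr family in the endoplasmic reticulum and releases calcium. Calcium opens the apical chloride channel Ano1 and the potassium channels Kcnn4 and Kcnma1, while Slc12a2 and bicarbonate transporters reload the cell with anions from the basolateral side. Sodium follows chloride, and water follows salt through Aqp5, so that the lacrimal gland (LG) makes the watery part of tears.

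Bulk RNA-seq was run on whole LGs of 18 males, each library from 1 LG of 1 mouse. BALB/c (BALB/cJ), the control strain, and NOD.H-2b (NOD.B10Sn-H2b/J), a model of Sjögren's syndrome in which lymphocytes infiltrate the LG, were taken at ages of 2 months (2M), 4 months (4M) and 6 months (6M), with 3 mice in each of the 6 groups. The labels name no treatment, transgene or deleted gene in either strain. The strains differ across the genome, and inherited differences and disease cannot be told apart in this design.

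Library totals ran from 49480781 to 103936830 counts, the highest being BALB/c 6M replicate 1. Levels are CPM, each count as a share of its library after TMM normalization. A gene was called when the false discovery rate (FDR) of the quasi-likelihood test in edgeR was below 0.05, and a DEG was a called gene with a change of at least 2-fold. The 14 lacrimal acinar markers summed to 62276 to 93178 CPM in the NOD.H-2b mice and 116015 to 169722 CPM in BALB/c, and the 10 salivary gland markers summed to at most 14.1 CPM. The secreted Scgb2b7 was the largest of the 14 in every group, with means of 50970 to 76350 CPM. At 2M the means of Pigr (619.9 against 137.5 CPM) and Lcn11 (4345 against 1280 CPM) were higher in NOD.H-2b. The other acinar markers were lower there. In relative terms they ran from Esp31 (73.1 against 3338 CPM) and Scgb2a2 (801 against 7435 CPM) to Pax6, which differed little (215 against 235 CPM). A list of 40 genes of epithelial structure summed to 3220 to 3520 CPM in the BALB/c mice and to 3060 to 3410 CPM at 2M, 2310 to 2820 CPM at 4M and 1990 to 2410 CPM at 6M in NOD.H-2b. At 6M, 26 of these 40 were called lower and 4 higher in NOD.H-2b, where 25.8% of all tested genes were called lower and 28.6% higher. The 10 B cell markers summed to at most 2.91 CPM in BALB/c, where up to 6 of them were at 0 in a mouse, and to 1.81 to 34.5 CPM at 2M, 176 to 386 CPM at 4M and 262 to 528 CPM at 6M in NOD.H-2b, with none at 0. All 12 T cell markers were called higher in NOD.H-2b at 6M, as were 11 of 12 macrophage markers, against the same 28.6%. In bulk tissue, fewer cells of a type and less RNA per cell cannot be told apart.

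Per kilobase of exon, Aqp5 stood highest of the 10 genes in every group, at 56.2 ± 0.614 CPM per kb in BALB/c 2M (SD, n = 3), followed by Itpr3 at 26.8 ± 1.06 and Ano1 at 10.3 ± 0.263. Kcnma1 (7.58 ± 0.343 CPM per kb) and Slc12a2 (6.95 ± 0.464) came next in BALB/c 2M, and their ranges overlapped in NOD.H-2b at 4M and 6M. Kcnn4, Slc4a4 and Itpr2 followed in BALB/c, at 4.84 ± 0.226, 2.49 ± 0.126 and 1.14 ± 0.0291 CPM per kb at 2M. In NOD.H-2b this order turned, and at 6M Itpr2 (5.41 ± 1.2 CPM per kb) lay above Slc4a4 (1.82 ± 0.0361) and Kcnn4 (1.58 ± 0.185) without overlap. Aqp4 and Cftr were near the limit of detection, with at most 70 and 71 counts in a mouse.

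**Figure D1:**
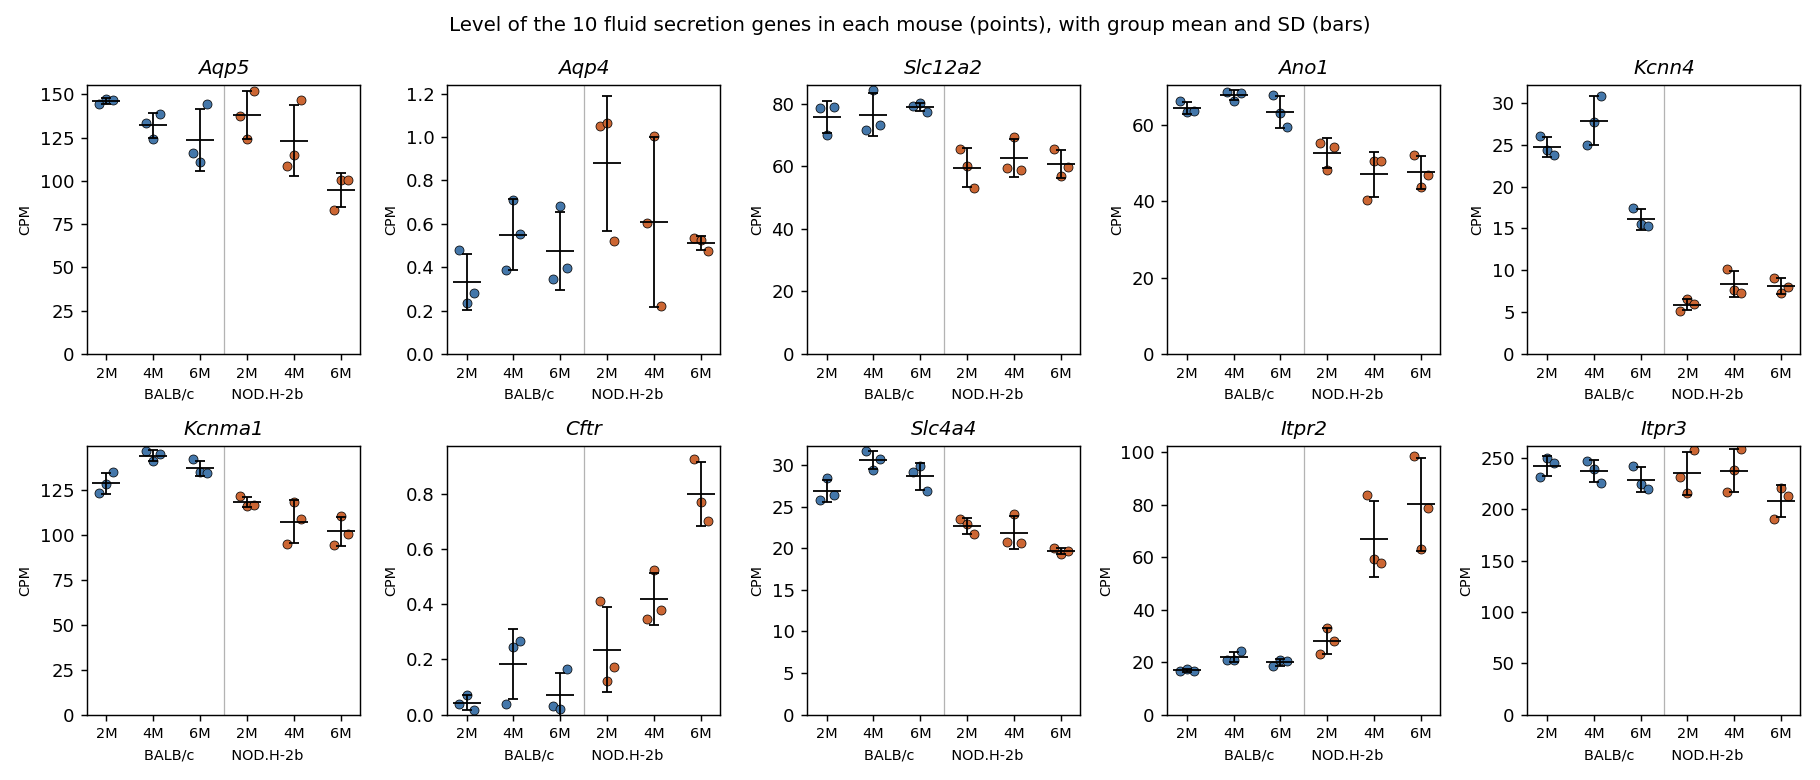
CPM of each of the 10 genes (vertical axis, from 0) in each mouse (points) at 2M, 4M and 6M in BALB/c (blue) and NOD.H-2b (orange), with the group mean (horizontal line) and SD (bars). Kcnn4 lies lower in every NOD.H-2b mouse than in every BALB/c mouse, Itpr2 rises in NOD.H-2b to 80.1 CPM at 6M, and Itpr3 stays between 190.2 and 258 CPM.

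The strains were compared at each age on the 6 mice of that age, to ask which parts of the secretory machinery differ in transcript level in the inflamed gland. At 2M, 6 of the 9 genes tested were called, where 39.8% of all tested genes were (22.5% higher and 17.2% lower): Aqp4 and Itpr2 higher in NOD.H-2b, and Slc12a2, Ano1, Kcnn4 and Slc4a4 lower. At 4M, 6 of 10 were called against 42.6% of all genes (23.4% higher and 19.2% lower), Itpr2 higher and Slc12a2, Ano1, Kcnn4, Slc4a4 and Kcnma1 lower. At 6M, 8 of 10 were called against 54.4% of all genes (28.6% higher and 25.8% lower), Itpr2 and Cftr higher and the same 5 with Aqp5 lower. DEGs were 2 at each age, where 15.8%, 20.3% and 24.8% of all genes were: Aqp4 and Kcnn4 at 2M, Itpr2 and Kcnn4 at 4M, and Itpr2 and Cftr at 6M. The CPM of the strains did not overlap for 8, 7 and 8 of the 10 genes at 2M, 4M and 6M, against 53.4%, 55.4% and 64.6% of all tested genes. Over the members tested, the median log2 fold change stood at -0.082 at 2M, -0.19 at 4M and -0.35 at 6M, and that of all genes lay between -0.0041 and 0.0099.

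**Figure D2:**
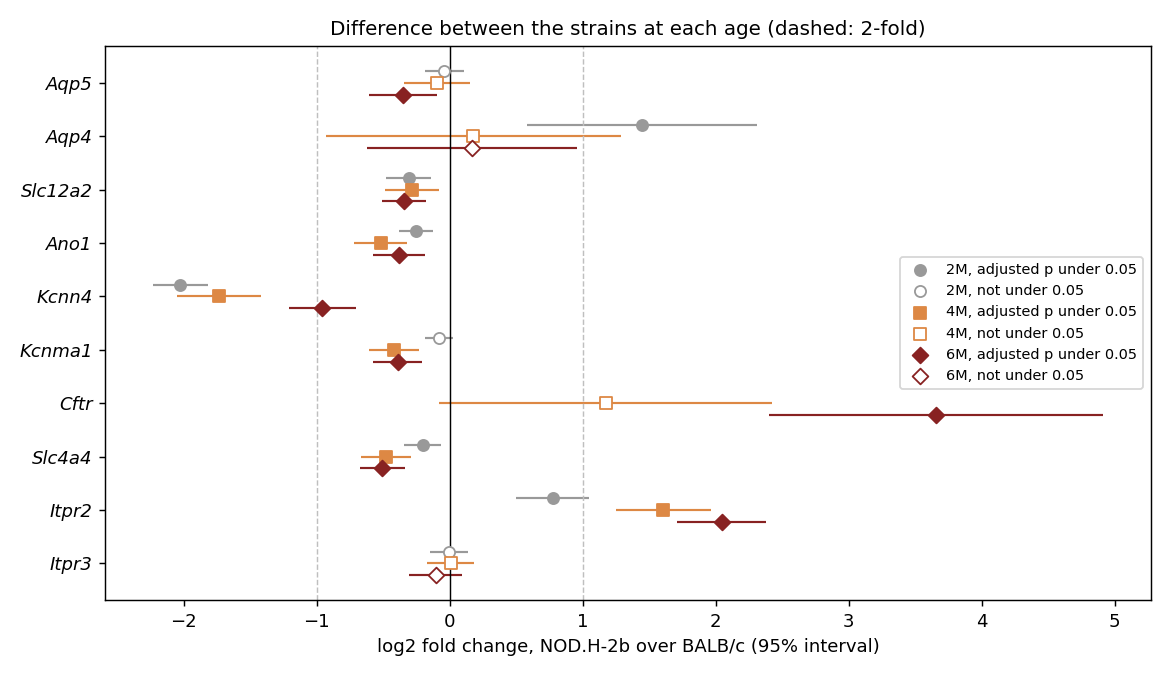
Log2 fold change of NOD.H-2b over BALB/c (horizontal axis) with its 95% interval (bars) for each gene at 2M (grey circles), 4M (orange squares) and 6M (dark red diamonds), filled where the FDR is under 0.05. Kcnn4 moves from -2.02 at 2M to -0.96 at 6M, Itpr2 from 0.77 to 2.05, Itpr3 lies near 0, and Cftr has no point at 2M because its counts were too few for the test.

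Several of these calls depended on the scale. When levels were set relative to the epithelial structure list in place of all genes, the median log2 fold change of all genes moved to -0.35 at 2M, 0.21 at 4M and 0.13 at 6M. On that scale the members called higher and lower numbered 2 and 7 at 2M (2 and 4 on the main scale), 1 and 2 at 4M (1 and 5), and 2 and 3 at 6M (2 and 6). Kcnn4 and Itpr2 kept their direction and their call at every age on both scales. Of the others, Slc12a2 and Slc4a4 at 4M had -0.073 (FDR 0.669) and -0.27 (FDR 0.112) on the epithelial scale, and Kcnma1 had -0.22 (FDR 0.137). At 6M the values of Aqp5, Slc12a2 and Ano1 were -0.22 (FDR 0.0606), -0.21 (FDR 0.137) and -0.24 (FDR 0.116).

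**Figure D3:**
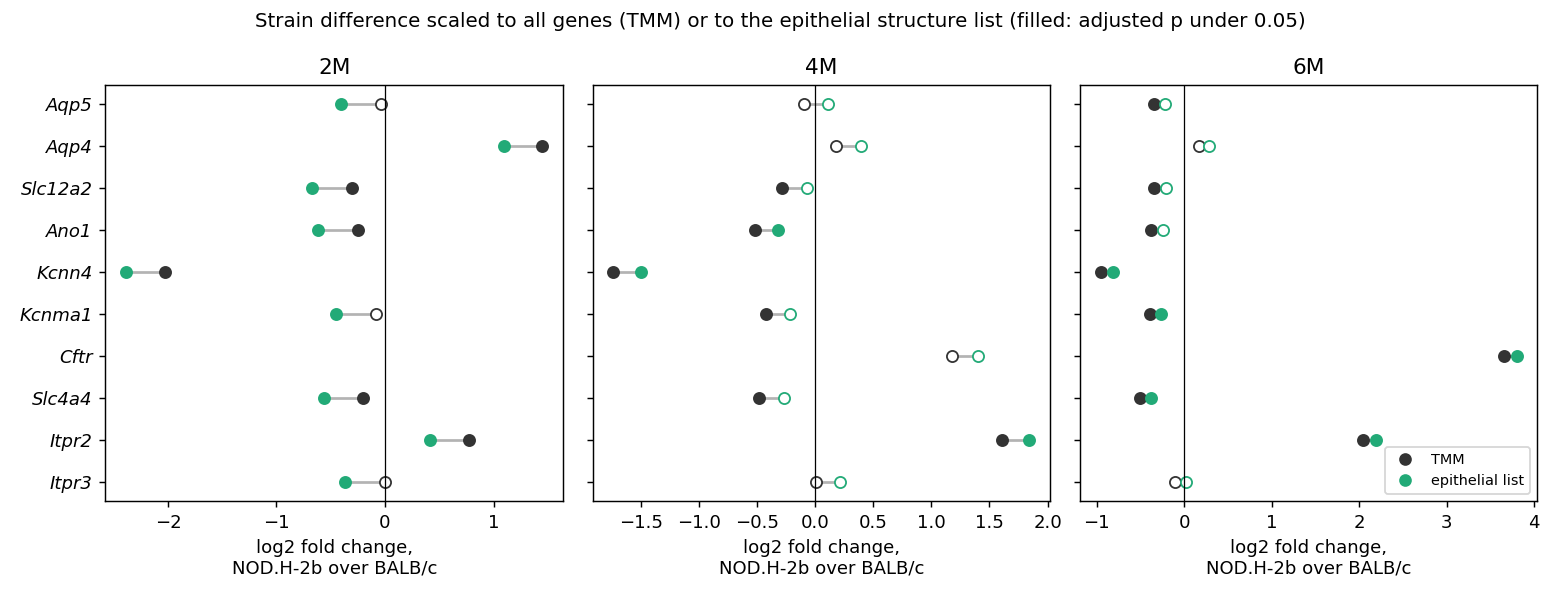
Log2 fold change of NOD.H-2b over BALB/c for each gene at 2M, 4M and 6M (panels, each with its own horizontal axis), scaled to all genes with TMM (dark) or to the epithelial structure list (green), filled where the FDR is under 0.05. The 2 scales differ by a nearly common shift of all genes in a panel, and the points of Slc12a2 at 6M go from -0.34 to -0.21, where the call is lost.

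Aqp5 (ENSMUSG00000044217, chr15:99590782-99594829), the apical water channel of acinar and ductal cells, was lower in NOD.H-2b at 6M and not called at 2M or 4M. At 6M its CPM were 116, 111 and 144 in the BALB/c mice and 83.3, 101 and 100.5 in the NOD.H-2b mice. Every NOD.H-2b mouse lay below every BALB/c mouse, and BALB/c replicate 3 stood above the rest. The log2 fold change was -0.35 (SE 0.11, FDR 0.0263), a 1.27-fold lower level. The call was lost without BALB/c 6M replicate 3 (-0.24, FDR 0.0884) or without NOD.H-2b 6M replicate 1 (-0.25, FDR 0.0937). At 2M the levels were 146 ± 1.6 and 138 ± 14.0 CPM in the BALB/c mice and NOD.H-2b, a difference of -0.041 (95% interval -0.19 to 0.11, FDR 0.670). At 4M they were 132 ± 7.11 and 123 ± 20.4 CPM, a difference of -0.095 (95% interval -0.34 to 0.15, FDR 0.525). NOD.H-2b 4M replicate 3, at 146 CPM, was the highest mouse of either strain at that age, and without it the 4M difference was called (-0.24, FDR 0.0279). Aqp5 on the epithelial scale was called at 2M in place of 6M, at -0.41 (FDR 0.000168).

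Aqp4 (ENSMUSG00000024411, chr18:15389496-15410982), a water channel best known from astrocyte endfeet and also found in basolateral membranes of some epithelia, was higher in NOD.H-2b at 2M on few counts. The 3 BALB/c mice had 25, 13 and 16 counts and the 3 NOD.H-2b mice 64, 70 and 33. The ranges in CPM, 0.478, 0.233 and 0.282 against 1.05, 1.07 and 0.519, lay close at their edge without overlapping. The log2 fold change was 1.45 (SE 0.39, FDR 0.0122), and without BALB/c 2M replicate 2 it was 1.25 with an FDR of 0.0537. At 4M and 6M the differences were 0.18 (95% interval -0.93 to 1.29, FDR 0.806) and 0.17 (95% interval -0.62 to 0.96, FDR 0.708). Of the aquaporins outside the set, Aqp1, the water channel of capillary endothelium and red cells, was called higher at all 3 ages (1.61, 1.19 and 1.58), from 4.73 ± 0.103 CPM in the BALB/c mice to 13.8 ± 2.72 CPM in those of NOD.H-2b at 6M. The summed level of 12 endothelial markers was 99.3 to 101 CPM in the BALB/c mice and 156 to 178 CPM in those of NOD.H-2b at 6M. Of the group means, those of Pecam1 (7.27 and 34.4 CPM) and Vwf (31.2 and 61.1 CPM) differed most. Cdh5, Egfl7, Plvap and Eng were higher in NOD.H-2b by less, Kdr and Flt1 were nearly equal, and Tek, Emcn, Cldn5 and Esam were lower. The paper also places Aqp1 in its signature of myoepithelial cells. The 12 myoepithelial and smooth muscle markers summed to 145 to 201 CPM in BALB/c 6M and 156 to 167 CPM in NOD.H-2b 6M, which overlap. The part of endothelial or myoepithelial cells in the Aqp1 difference was not tested. Aqp3, an aquaglyceroporin of basolateral membranes, had at most 36 counts in a mouse, was too low to test at 2M and was not called at 4M or 6M.

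Slc12a2 (ENSMUSG00000024597, chr18:57878678-57946821), the sodium potassium chloride cotransporter that loads chloride into the acinar cell, was lower in NOD.H-2b at all 3 ages. At 6M its CPM were 79.3, 80.2 and 77.5 for BALB/c and 65.7, 57.0 and 59.7 in NOD.H-2b. The BALB/c mice were tightly grouped and all stood above the NOD.H-2b mice, as they did at 2M and 4M. Its log2 fold changes came to -0.31 (SE 0.076, FDR 0.00893) at 2M, -0.28 (SE 0.090, FDR 0.0284) at 4M and -0.34 (SE 0.074, FDR 0.00314) at 6M. The call at 4M was lost when BALB/c 4M replicate 2 or NOD.H-2b 4M replicate 1 or 3 was left out, with FDRs of 0.113, 0.0690 and 0.0785. The absorptive cotransporter Slc12a1, typical of kidney, rose from 1.43 ± 0.423 to 7.46 ± 1.47 CPM at 6M and was called higher at each age (2.28, 2.56 and 2.43). Atp1b1, the beta subunit of the sodium pump that drives the cotransporter, was called higher at 6M, at 0.41 (SE 0.11, FDR 0.00972).

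Ano1 (ENSMUSG00000031075, chr7:144588549-144751974), the calcium-activated chloride channel of the apical membrane, was lower in NOD.H-2b at all 3 ages. Its CPM at 4M were 68.7, 66.3 and 68.5 for BALB/c and 40.3, 50.6 and 50.5 in NOD.H-2b. No NOD.H-2b mouse reached any BALB/c mouse of its age at 2M, 4M or 6M. At 2M, 4M and 6M the log2 fold changes were -0.25 (SE 0.058, FDR 0.00502), -0.52 (SE 0.089, FDR 0.00118) and -0.38 (SE 0.087, FDR 0.00421), of which the largest is a 1.43-fold lower level. Leaving out any 1 mouse changed none of the 3 calls. Ano6, a scramblase of the same family with a wider tissue range, was called higher at each age (0.59, 0.30 and 0.26). The Ano6 call was lost at 4M without BALB/c 4M replicate 1 or 2 or NOD.H-2b 4M replicate 2 (0.20 to 0.31, FDR 0.0583 to 0.126) and at 6M without BALB/c 6M replicate 1 (0.23, FDR 0.0835).

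Cftr (ENSMUSG00000041301, chr6:18170687-18322768), the cyclic AMP-regulated anion channel of duct cells, had few counts in every BALB/c mouse and rose with age in NOD.H-2b, still at a low level. The BALB/c mice had 2, 4 and 1 counts at 2M, 2, 12 and 18 at 4M and 3, 1 and 7 at 6M. The NOD.H-2b mice had 25, 8 and 11 counts at 2M, 23, 34 and 19 at 4M and 71, 44 and 40 at 6M. Every NOD.H-2b mouse had a higher CPM than every BALB/c mouse of its age, and the 2 strains lay closest at 4M. Summed over the 3 mice of a group and corrected for depth, the level in NOD.H-2b was 5.44 (95% interval 2.43 to 14.3) times that in BALB/c at 2M, 2.24 (95% interval 1.46 to 3.50) times at 4M and 13.5 (95% interval 7.34 to 27.6) times at 6M, intervals that cover counting error only. In the test over mice the log2 fold change was 1.17 (95% interval -0.077 to 2.43, FDR 0.121) at 4M and 3.66 (SE 0.56, FDR 0.000380) at 6M, values that depend on the prior count because BALB/c holds so few counts. At 2M Cftr had too few counts to be tested, and with no filter on low counts its difference was 2.42 (SE 0.76, FDR 0.00717).

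By the root mean square difference of the 6 group means of log2 CPM, each centered on its own mean, the genes nearest to Cftr among 7929 genes with an edgeR average abundance over all mice, taken before the log, of 3 or more in log2 CPM were H2-Aa, a chain of MHC class II, Sp110, an interferon-induced nuclear body gene, and Rassf2, a Ras association domain gene (0.277, 0.282 and 0.298). Cftr had the widest span of group means of the 10 genes, 3.51 on the log2 scale. Its own average was -1.60 log2 CPM, below the floor of 3, so its group means rest on few counts and depend on the prior count. The distances of these genes from Cftr were larger than those of the genes nearest to Aqp5, given below (0.0294 to 0.0399). H2-Aa stood at 31.5 ± 4.71 CPM in the BALB/c mice and 257 ± 72.6 CPM in those of NOD.H-2b at 6M. The part of immune or duct cells in the Cftr difference was not tested. At 6M the 10 ductal markers summed to 894 to 1087 CPM in the BALB/c mice and 880.2 to 1070.2 CPM in NOD.H-2b, ranges that overlap. Ltf, Dmbt1 and Wfdc18 made up most of this sum, with means of 563.7, 292.1 and 101 CPM in BALB/c 6M. Of the others, Slpi (4.89 and 18.8 CPM), Cldn4 (0.168 and 2.24 CPM), Wfdc2 and Krt19 were higher in NOD.H-2b 6M, and Krt7, Aldh1a3 and Krt23 were lower.

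Kcnn4 (ENSMUSG00000054342, chr7:24370263-24386690), the intermediate-conductance calcium-activated potassium channel of exocrine acini and of activated lymphocytes, showed the largest loss among the 10 genes. At 2M its CPM were 26.0, 24.4 and 23.8 for BALB/c and 5.18, 6.55 and 5.96 in NOD.H-2b, and at 4M 25.0, 27.8 and 30.9 against 10.1, 7.65 and 7.27. At 6M they were 17.5, 15.5 and 15.3 against 9.11, 7.23 and 7.96. The strains did not overlap at any age, and the gap was smallest at 6M, where BALB/c was lower and NOD.H-2b was no lower than at 2M. The log2 fold changes were -2.02 (SE 0.094, FDR 3.19e-08), -1.73 (SE 0.14, FDR 1.78e-05) and -0.96 (SE 0.11, FDR 6.63e-05), or levels 4.07-fold, 3.33-fold and 1.94-fold lower. In order of level the groups ran from NOD.H-2b 2M (5.89 ± 0.687 CPM) through NOD.H-2b 6M (8.10 ± 0.948), NOD.H-2b 4M (8.34 ± 1.54), BALB/c 6M (16.1 ± 1.23) and BALB/c 2M (24.7 ± 1.16) to BALB/c 4M (27.9 ± 2.93). In this order 2 pairs of neighbors overlapped in range, NOD.H-2b 6M with 4M and BALB/c 2M with 4M.

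Kcnma1 (ENSMUSG00000063142, chr14:23289431-24014491), the large-conductance potassium channel opened by calcium and voltage, was lower in NOD.H-2b at 4M and 6M. At 4M its CPM were 146, 141 and 145 for BALB/c and 94.6, 118 and 109 in NOD.H-2b, with no overlap. Kcnma1 had log2 fold changes of -0.42 (SE 0.083, FDR 0.00265) at 4M and -0.39 (SE 0.084, FDR 0.00291) at 6M, after -0.082 (95% interval -0.19 to 0.023, FDR 0.202) at 2M. The antisense gene 4930519K11Rik shares 1016 exon bases with Kcnma1 and had 15 to 78 counts in a mouse, against 5429 to 13208 for Kcnma1, and whether the counting used strand is not given in the sources used here. Among the subunits that tune Kcnma1, Lrrc26, which lets the channel open at resting voltage in secretory epithelium, was the most abundant and was lower at all 3 ages. Its levels fell from 131 ± 2.64 CPM in the BALB/c mice to 76.1 ± 9.10 CPM in those of NOD.H-2b at 6M, and its log2 fold changes were -0.16, -0.51 and -0.75 (FDR 0.0186, 0.00194 and 0.000111). The Lrrc26 call was lost at 4M with levels set to the epithelial list (-0.30, FDR 0.0789), and at 2M without BALB/c 2M replicate 1 (-0.14, FDR 0.0826). The smooth muscle subunit Kcnmb1 was higher at 2M (1.06, SE 0.29, FDR 0.0121) with at most 89 counts in a mouse, a call lost without BALB/c 2M replicate 1 (0.94, FDR 0.0525). It was not called at 4M or 6M, where its means were 0.509 and 0.541 CPM in BALB/c and 0.978 and 0.945 CPM in NOD.H-2b. Some other settings called it higher at both ages, among them no filter on low counts (0.96 and 0.88, FDR 0.0430 and 0.0445). The neuronal subunit Kcnmb4 was higher at 4M and 6M (3.07 and 3.04) with at most 8 counts in a BALB/c mouse.

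Slc4a4 (ENSMUSG00000060961, chr5:88886818-89239653), the sodium bicarbonate cotransporter that brings bicarbonate into the cell across the basolateral membrane, was lower in NOD.H-2b at every age. At 6M its CPM were 29.2, 29.8 and 26.8 for BALB/c and 20.1, 19.3 and 19.7 in NOD.H-2b. The NOD.H-2b mice at 6M differed from each other by less than 1 CPM and all lay below BALB/c. The log2 fold changes were -0.20 (SE 0.063, FDR 0.0226), -0.48 (SE 0.085, FDR 0.00147) and -0.51 (SE 0.076, FDR 0.000336). The call at 2M was lost without BALB/c 2M replicate 2 (FDR 0.105) or NOD.H-2b 2M replicate 3 (FDR 0.0519). The chloride bicarbonate exchanger Slc4a2 was not called at any age, with a 6M difference of 0.20 (95% interval 0.00052 to 0.40, FDR 0.0833). With levels set to the epithelial list, Slc4a2 was called lower at 2M, at -0.25 (FDR 0.0240).

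Itpr2 (ENSMUSG00000030287, chr6:146108299-146502223), an inositol trisphosphate receptor that releases stored calcium, was the member with the largest well-counted gain. Its CPM in BALB/c were 16.7, 17.3 and 16.5 at 2M, 21, 20.9 and 24.1 at 4M and 18.5, 20.8 and 20.4 at 6M. In NOD.H-2b they were 23.1, 32.9 and 28.0 at 2M, 83.6, 59.3 and 57.6 at 4M and 98.4, 63.1 and 78.8 at 6M. The NOD.H-2b mice stood above the BALB/c mice of their age throughout, with a gap that widened between 2M and 6M, and replicate 1 was the highest NOD.H-2b mouse at 4M and at 6M. The log2 fold changes were 0.77 (SE 0.12, FDR 0.000927), 1.61 (SE 0.15, FDR 0.000154) and 2.05 (SE 0.15, FDR 6.18e-06), or 1.71-fold, 3.05-fold and 4.13-fold higher levels. Neighbors in the order of the group means overlapped between BALB/c 4M and NOD.H-2b 2M and between NOD.H-2b 4M and 6M.

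Itpr3 (ENSMUSG00000042644, chr17:27057304-27122223), the receptor of the same family that is concentrated at the apical pole of exocrine cells, was not called at any age. Its CPM at 6M were 242, 224 and 219.9 for BALB/c and 190.2, 220.5 and 212 in NOD.H-2b, which overlap. The differences were -0.0018 (95% interval -0.14 to 0.14, FDR 0.985), 0.0080 (95% interval -0.17 to 0.19, FDR 0.949) and -0.10 (95% interval -0.31 to 0.096, FDR 0.348). It was called lower at 2M on the epithelial scale (-0.37, FDR 0.000460). The family's remaining receptor, Itpr1, moved with Itpr2, by 0.76 (SE 0.16, FDR 0.00891), 1.32 (SE 0.15, FDR 0.000245) and 1.88 (SE 0.13, FDR 4.20e-06). Set to the epithelial list, the 2M call of Itpr1 was lost (0.41, FDR 0.109) while that of Itpr2 was kept. Per kilobase Itpr3 remained the most abundant receptor, at 23.0 ± 1.74 CPM per kb in NOD.H-2b 6M against 5.41 ± 1.2 for Itpr2 and 3.40 ± 0.699 for Itpr1. In BALB/c 6M the values were 25.4 ± 1.31, 1.34 ± 0.0859 and 0.945 ± 0.0299.

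Downstream of store release, Stim1, the sensor that reports an empty calcium store to channels in the plasma membrane, was lower in NOD.H-2b at every age by more than 2-fold. It stood at 8.37, 8.79 and 9.41 CPM per kb in the BALB/c mice at 2M and 4.13, 3.88 and 3.94 in the NOD.H-2b mice. The groups were narrow and far apart at 4M and 6M as well. The log2 fold changes were -1.11 (SE 0.054, FDR 4.66e-08), -1.22 (SE 0.068, FDR 1.86e-06) and -1.30 (SE 0.066, FDR 3.91e-07). Its channel partner Orai1 was called at 6M, at 0.35 (SE 0.12, FDR 0.0296), a call lost without BALB/c 6M replicate 1 or 2 or 3 or NOD.H-2b 6M replicate 3 (0.27 to 0.37, FDR 0.0569 to 0.140). Orai2, of the same channel family, was higher at each age (2.78, 3.61 and 4.83). Plcb2, a phospholipase C of blood cells that makes inositol trisphosphate, was higher by 2.34, 3.05 and 3.70.

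**Figure D4:**
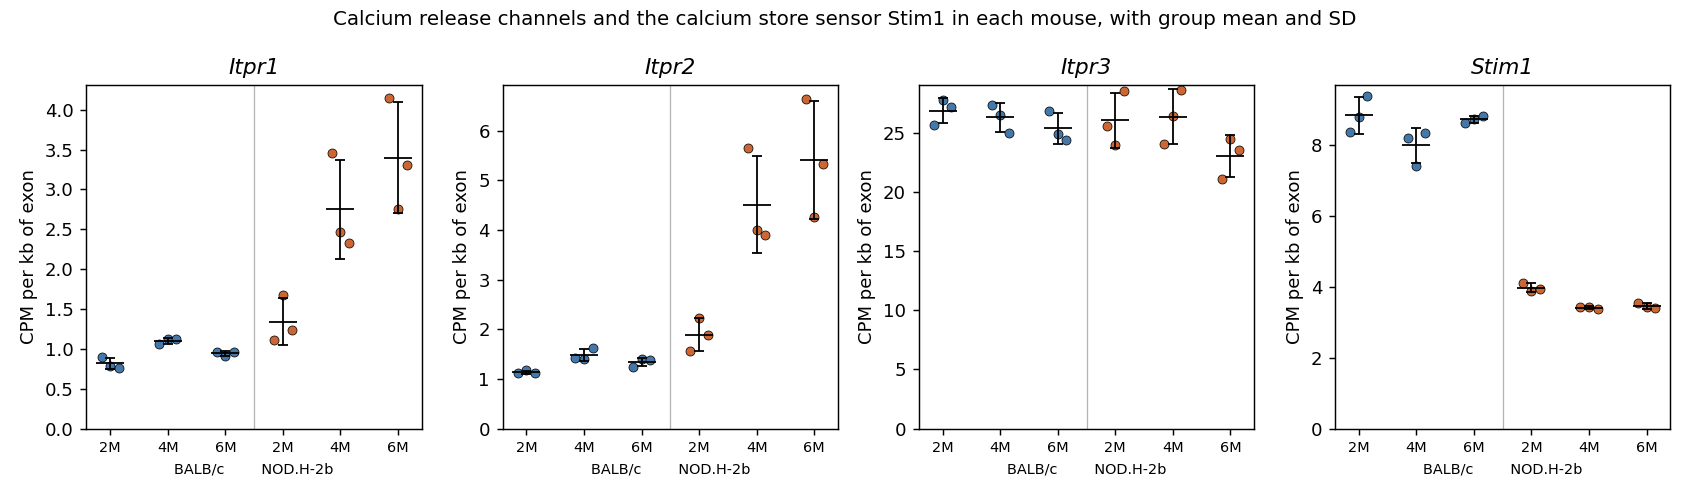
CPM per kb of exon (vertical axis, from 0, its own for each panel) of Itpr1, Itpr2, Itpr3 and Stim1 in each mouse (points) of BALB/c (blue) and NOD.H-2b (orange), with group mean and SD. Itpr1 and Itpr2 climb between 2M and 4M in NOD.H-2b, Itpr3 overlaps between the strains, and Stim1 is near 3.42 CPM per kb in NOD.H-2b 4M against 8.00 in BALB/c 4M.

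The order of the 3 NOD.H-2b mice of an age was compared between marker sums and genes. The 10 B cell markers summed to 1.81, 34.5 and 14.3 CPM at 2M in replicates 1, 2 and 3 of NOD.H-2b, 386, 210.3 and 176 at 4M and 528, 262 and 350.5 at 6M. Within each of the 3 ages the NOD.H-2b mice fell in the same order by this sum, and by the summed T cell markers, as by Itpr2, by Itpr1 and by Kcnn4, and in the opposite order by the summed epithelial structure list, which was 1985, 2406 and 2254 CPM at 6M. Among the other 8 members none had that order at all 3 ages. The B cell, T cell and epithelial sums gave 1 order, reversed for the epithelial list, so they are not separate likenesses. By the summed macrophage or lacrimal acinar markers, the order matched that by Itpr2, Itpr1 and Kcnn4 at 1 of the 3 ages. The likeness to lymphocyte markers was noticed in the data. The part of lymphocytes in the differences of Itpr2, Itpr1 and Kcnn4 was not tested.

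The 250 bases before the annotated start are shown for Kcnn4 and Itpr2, the well-counted members with the largest loss and gain, and for Itpr3, the related receptor with no called difference. They come from RefSeq on GRCm38.p6, where 8 of the 10 members had a window, and are read 5′ to 3′ on the gene's strand from chr7:24370013-24370262 (plus strand), chr6:146502224-146502473 (minus strand) and chr17:27057054-27057303 (plus strand). Capitals mark GGGCGG (a GC box) and CCAAT on either strand.
Kcnn4: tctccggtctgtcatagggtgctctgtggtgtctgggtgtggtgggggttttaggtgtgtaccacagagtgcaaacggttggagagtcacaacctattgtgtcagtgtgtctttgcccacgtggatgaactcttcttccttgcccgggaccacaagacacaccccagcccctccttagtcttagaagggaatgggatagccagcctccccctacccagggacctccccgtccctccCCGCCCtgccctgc
Itpr2: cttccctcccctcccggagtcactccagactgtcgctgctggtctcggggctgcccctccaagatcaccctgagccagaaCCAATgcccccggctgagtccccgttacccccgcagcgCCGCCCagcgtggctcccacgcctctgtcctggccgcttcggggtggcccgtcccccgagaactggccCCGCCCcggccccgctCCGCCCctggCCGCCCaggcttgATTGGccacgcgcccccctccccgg
Itpr3: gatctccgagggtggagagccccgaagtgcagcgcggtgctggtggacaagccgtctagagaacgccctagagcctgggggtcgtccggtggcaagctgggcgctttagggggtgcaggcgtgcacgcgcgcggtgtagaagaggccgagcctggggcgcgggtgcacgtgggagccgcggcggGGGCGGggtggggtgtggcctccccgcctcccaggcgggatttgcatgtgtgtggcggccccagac
The Itpr2 window held 4 matches to GGGCGG and 2 to CCAAT, and those of Kcnn4 and Itpr3 held 1 match to GGGCGG and 0 to CCAAT. Of all 32851 windows, 32.7% held GGGCGG and 33.8% held CCAAT. None of the 3 windows held TATAAA, found in 12.4% of all windows, or TTCNNNGAA, the site of STAT factors, found in 7.02%. CANNTG, the E-box, occurred 1 time in Kcnn4, 2 times in Itpr3 and 0 times in Itpr2, and in 66.2% of all windows. The GC content was 58.8% for Kcnn4, 74.4% for Itpr2 and 72.0% for Itpr3, against a median of 52.4% over all windows. These are matches of letters, with nothing measured on binding.

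Within each strain, ages were compared to see when the differences arose. In BALB/c, 2 of the 9 tested members were called between 2M and 4M against 11.1% of all genes, Itpr2 (0.39, SE 0.073, FDR 0.00483) and Kcnma1 (0.17, SE 0.047, FDR 0.0399), both higher. The Kcnma1 call was lost whichever of the 6 mice was left out, and on the epithelial scale Itpr2 had 0.12 (FDR 0.360). From 4M to 6M the only member called in BALB/c was Kcnn4, which fell by 0.80 (SE 0.092, FDR 0.00535) where 0.307% of all genes were called. From 2M to 6M it was again the only one, at -0.62 (SE 0.076, FDR 0.000862) against 5.61% of all genes. On the epithelial scale the members called higher and lower numbered 0 and 3 between 2M and 4M, 1 and 1 between 4M and 6M, and 0 and 1 between 2M and 6M, against 2 and 0, 0 and 1, and 0 and 1 on the main scale. All 3 BALB/c mice at 6M lay below all 6 at 2M and 4M for Kcnn4.

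In NOD.H-2b, Itpr2 was the only member called between 2M and 4M (1.26, SE 0.20, FDR 0.0149), where 15.8% of all genes were, and without NOD.H-2b 2M replicate 3 its FDR was 0.0763. Scaled to the epithelial list, 3 members were called higher between 2M and 4M and 0 lower. From 4M to 6M edgeR called 0 of 10 members and 0.00555% of all genes. Aqp5 and Cftr, 2 members, had an unadjusted p under 0.05 there, and DESeq2 called 0 as well. From 2M to 6M, 6 of 10 members were called against 40% of all genes. Itpr2 (1.5, SE 0.20, FDR 0.00335), Cftr (1.76, SE 0.43, FDR 0.0113) and Kcnn4 (0.44, SE 0.13, FDR 0.0250) rose. Aqp5 (-0.56, SE 0.10, FDR 0.00404), Slc4a4 (-0.22, SE 0.069, FDR 0.0298) and Kcnma1 (-0.23, SE 0.079, FDR 0.0445) fell.

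The calls of Kcnn4, Kcnma1 and Slc4a4 were lost when any 1 of several mice was left out, and those of Kcnma1, Slc4a4 and Aqp5 depended on the scale. With the replicate number as a block in the fit, Kcnn4, Kcnma1 and Slc4a4 were not called either (FDR 0.0835, 0.0953 and 0.0838). The FDR of Kcnn4 passed 0.05 without NOD.H-2b 2M replicate 1 or 3 or 6M replicate 1 or 3 (0.0813, 0.0624, 0.0767 and 0.0621), and those of Kcnma1 and Slc4a4 passed it for 5 of the 6 mice. On the epithelial scale, where the median of all genes moved to 0.49, 8 members were called higher between 2M and 6M in NOD.H-2b and 0 lower. Kcnma1, Slc4a4 and Aqp5 had 0.27, 0.28 and -0.056 (FDR 0.519) there, against 2.01 for Itpr2.

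Whether the strains changed differently with age was tested as an interaction in 1 fit of all 18 mice. From 2M to 6M, 3 of 10 members were called against 16.1% of all genes. Itpr2 changed by 0.23 for BALB/c and 1.5 in NOD.H-2b, a difference of 1.28 (SE 0.24, FDR 0.00437). Kcnn4 changed by -0.62 for BALB/c and 0.44 in NOD.H-2b, a difference of 1.08 (SE 0.17, FDR 0.00122), so that the gap between the strains narrowed from both sides. Slc4a4 changed by 0.085 for BALB/c and -0.22 in NOD.H-2b, a difference of -0.29 (SE 0.098, FDR 0.0477) whose call was lost without any 1 of 9 of the 18 mice and on the epithelial scale (0.19, FDR 0.332). For Aqp5 the difference in change was -0.30 (95% interval -0.64 to 0.039, FDR 0.215), and for Kcnma1 -0.30 (95% interval -0.52 to -0.087, FDR 0.0516). With levels set to the epithelial list, 5 members were called higher and 0 lower in either interval. Itpr2 and Kcnn4 were among those between 2M and 6M, at 1.77 and 1.57. From 2M to 4M edgeR called 0 members against 1.67% of all genes, 3 members (Kcnma1, Slc4a4 and Itpr2) had an unadjusted p under 0.05, and DESeq2 called 2, Itpr2 and Kcnma1. Leaving out NOD.H-2b 6M replicate 1 or 2 let edgeR call Itpr2 in that interval.

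The other 183 genes of fluid secretion on the lists, of which 182 were in the table, held calls in either direction. At 2M they had 44 higher and 26 lower of 124 tested (56.5% called), at 4M 44 higher and 29 lower of 129 tested (56.6% called) and at 6M 44 higher and 36 lower of 125 tested (64% called), where 39.8%, 42.6% and 54.4% of all tested genes were called. At 6M 28.6% of all genes were called higher and 25.8% lower. By role at 6M, the calcium release and entry list had 14 and 10 of 37 called higher and lower, bicarbonate and proton transport 6 and 4 of 16, and chloride channels 6 and 8 of 21. Potassium channels and subunits had 4 and 4 of 12, cation-chloride cotransporters and their kinases 4 and 4 of 12, and the sodium pump 5 and 1 of 10. Carbonic anhydrases had 2 and 3 of 9, the epithelial sodium channel with its regulators 2 and 2 of 4, and other aquaporins 1 and 0 of 4.

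Among the genes called in one direction at all ages, those lower in NOD.H-2b were led by Car6, the secreted carbonic anhydrase of tears and saliva, with log2 fold changes of -2.89, -2.89 and -3.58 at 2M, 4M and 6M. Its call at 4M was lost without BALB/c 4M replicate 1 or 2 or NOD.H-2b 4M replicate 1 or 3 (-2.81 to -2.61, FDR 0.0559 to 0.0769). Lrrc8b and Lrrc8e, subunits of the volume-regulated anion channel, fell by 1.09, 2.20 and 2.24 and by 0.94, 1.88 and 2.90. Lrrc8b went from 151 ± 6.27 CPM in the BALB/c mice to 31.1 ± 8.88 CPM in those of NOD.H-2b at 6M. Scnn1a, the pore-forming alpha subunit of the epithelial sodium channel, had -0.71, -1.18 and -1.18.

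Those higher in NOD.H-2b were mostly at low levels. Kcnj10, an inward rectifier potassium channel best known from glia, had 3.24, 3.38 and 3.73 and reached 5.54 ± 1.33 CPM at 6M. Kcnj15, of the same family, had 1.21, 0.86 and 1.18. Slc4a8, a sodium-driven chloride bicarbonate exchanger, had 1.51, 3.52 and 3.63, and Atp6v1b1, a proton pump subunit, 0.91, 1.25 and 1.59. Car2, the cytosolic carbonic anhydrase, had 1.58, 2.5 and 3.43, and Fxyd5, a pump regulator, 1.86, 2.39 and 2.95. Of these, Atp6v1b1 lost its 2M call on the epithelial scale (0.54, FDR 0.0904) and without BALB/c 2M replicate 1 or 3 or NOD.H-2b 2M replicate 1 or 3 (0.78 to 0.91, FDR 0.0510 to 0.0649). Car2 lost its 2M call without BALB/c 2M replicate 1 or 2 or NOD.H-2b 2M replicate 2 or 3 (1.28 to 1.51, FDR 0.0542 to 0.0652). Nedd4l, the ubiquitin ligase that removes the sodium channel from the membrane, was better counted, at 14.8 ± 0.803 CPM in the BALB/c mice and 33.0 ± 1.29 CPM in those of NOD.H-2b at 6M (1.00, 1.13 and 1.19). Many of these genes are also known in immune or nerve cells, and the part of other cell types was not tested.

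**Figure D5:**
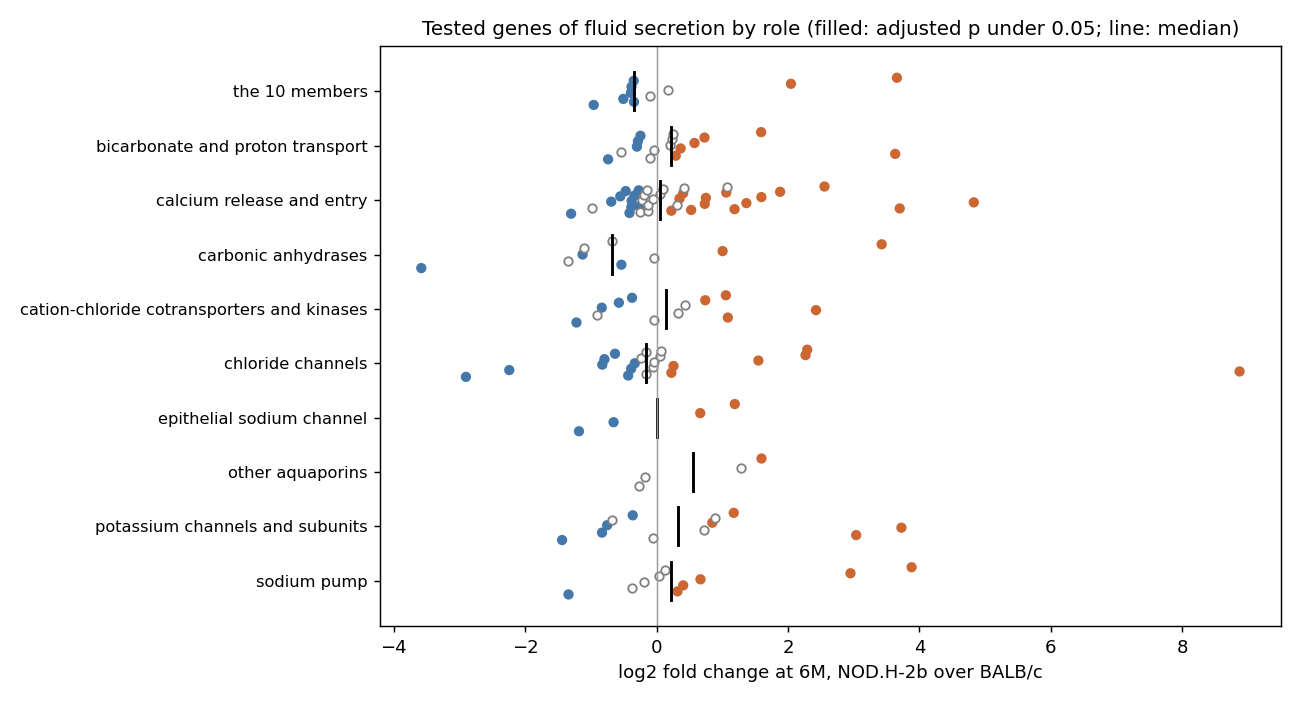
Log2 fold change of NOD.H-2b over BALB/c at 6M (horizontal axis) of each tested gene (points) for the 10 genes described here and for each list of other fluid secretion genes, filled orange (higher) or blue (lower) where the FDR is under 0.05, with the median of each list as a line. The 10 genes have 2 calls higher and 6 lower, and the chloride channel point at 8.87 is Clca3a2, picked out after its value was seen, with 0 or 1 count in each BALB/c mouse so that its fold is no bound.

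The 3 genes whose pattern over the 6 group means lay nearest to that of Aqp5, among 7928 genes, were Eif2b4, a translation initiation factor subunit, Psmc4, a proteasome subunit, and Ipo4, a nuclear import receptor, with root mean square differences of 0.0294, 0.0379 and 0.0399 on the log2 scale. Eif2b4 had -0.37 (SE 0.081, FDR 0.00344) at 6M, Psmc4 -0.31 (SE 0.089, FDR 0.0148) and Ipo4, not called, -0.31 (95% interval -0.59 to -0.038, FDR 0.0541), beside -0.35 for Aqp5. As for Aqp5, the calls of Eif2b4 and Psmc4 were lost on the epithelial scale (-0.24 and -0.18, FDR 0.0645 and 0.199), and that of Psmc4 without NOD.H-2b 6M replicate 1 (-0.27, FDR 0.0506). All 3 genes were lowest in NOD.H-2b 6M as Aqp5 was. The likeness is a description over 6 groups.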

How the data were processed

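Total RNA of whole LGs was rRNA-depleted and sequenced as paired reads by the authors. Per the labels, cutadapt, FastQC, STAR, HTSeq and GRCm38 were used, with versions, annotation release and strand setting not given in the sources used here. The deposited table holds raw gene counts for 18 mice. A second deposited table of log2 values, scaled by the authors, was not used.

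Groups followed the labels for strain and age. Counts were tested with edgeR 4.0.16 (R 4.3.3): filterByExpr, TMM and the robust quasi-likelihood test, with Benjamini-Hochberg FDR over all tested genes and a threshold of 0.05. Strain comparisons used the 6 mice of an age, age comparisons the 6 mice of 2 ages in a strain, and strain by age all 18. Fold changes are on the log2 scale. The SE is the size of the log2 fold change over the root of F. CPM used TMM over all mice, divided by GENCODE M21 exon length for levels per kb. The 3 mice of a group differed beyond counting noise. Tests were tried on simulated data first. Named genes outside the 10 were fixed partner genes, the genes of each role called one way at all 3 ages with the largest change, and the 3 nearest in pattern to Aqp5 and Cftr. A few genes that this rule names are not reported here. The members and lists were chosen with earlier results of these data known. Alternatives were RLE and upper quartile factors, scaling to the epithelial list, no filter, at least 10 counts in every mouse, DESeq2 1.42.0, a replicate block, 1 fit of all mice, and leaving out each mouse. Promoters were RefSeq windows.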

Additional observations from a re-analysis of the deposited data

Results flagged for a closer look

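Each gene here changed differently with age in the strains by the interaction of strain and age in edgeR, given as the log2 change in NOD.H-2b between 2M and 6M minus that in BALB/c, with 3 mice in each group. Of the members, Itpr2 had 1.28 (SE 0.24, FDR 0.00437), Kcnn4 1.08 (SE 0.17, FDR 0.00122) and Slc4a4 -0.29 (SE 0.098, FDR 0.0477). Itpr1, the related calcium release channel, had 1.13 (SE 0.25, FDR 0.00874), and Lrrc26, the subunit of Kcnma1, had -0.58 (SE 0.12, FDR 0.00558). Set to the epithelial list, Lrrc26 and Slc4a4 were not called, at -0.10 (FDR 0.586) and 0.19 (FDR 0.332), and the Slc4a4 call was lost when any 1 of 9 of the 18 mice was left out (FDR 0.0528 to 0.110).

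Of the other fluid secretion genes, Slc4a8 had 2.14 (SE 0.58, FDR 0.0205) and Fxyd5 1.10 (SE 0.30, FDR 0.0211). The call of Slc4a8 was lost without BALB/c 2M replicate 2 or 3 or NOD.H-2b 6M replicate 1 (1.94 to 1.96, FDR 0.0551 to 0.0588), and that of Fxyd5 without BALB/c 2M replicate 1 or 2 or BALB/c 6M replicate 1 or NOD.H-2b 6M replicate 1 (0.99 to 1.05, FDR 0.0513 to 0.0588). The anion channel subunits Lrrc8e and Lrrc8b had -1.96 (SE 0.35, FDR 0.00220) and -1.15 (SE 0.19, FDR 0.00200), and Lrrc8b differed between 2M and 4M as well, at -1.08 (SE 0.19, FDR 0.0108). Among the genes nearest in pattern to Aqp5 and Cftr, Eif2b4 had -0.32 (SE 0.11, FDR 0.0494), H2-Aa 1.46 (SE 0.45, FDR 0.0466) and Rassf2 1.38 (SE 0.39, FDR 0.0322). These 3 calls were lost when any 1 of several mice was left out: for Eif2b4 when any 1 of 8 of the 18 mice was left out (FDR 0.0521 to 0.134), for H2-Aa when any 1 of 14 of the 18 mice was left out (FDR 0.0516 to 0.126), and for Rassf2 when any 1 of 8 of the 18 mice was left out (FDR 0.0517 to 0.0882). Set to the epithelial list, Eif2b4 had 0.17 (FDR 0.292).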

How the results depend on the processing

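The number of members called moved by more than 1.5 times under these settings. On the epithelial scale it was 3 at 4M, 5 at 6M, 2 in BALB/c between 4M and 6M, 3 in NOD.H-2b between 2M and 4M, and 5 for strain by age between 2M and 6M and between 2M and 4M. With no filter it was 2 in BALB/c between 2M and 6M and 2 in NOD.H-2b between 2M and 4M, and with at least 10 counts in every mouse it was 3 in NOD.H-2b between 2M and 6M. DESeq2 gave 2 in NOD.H-2b between 2M and 4M and 2 for strain by age between 2M and 4M. With 1 fit of 18 mice the count was 0 for BALB/c and 2 in NOD.H-2b between 2M and 4M. The replicate block gave 1 in BALB/c between 2M and 4M, and in NOD.H-2b 0 between 2M and 4M and 3 between 2M and 6M. The replicate numbers do not pair the mice: same-numbered mice correlated at -0.3 to 0.298 over 27 pairs of deviations, 3 of them over 0.1.

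The reversals given here came on the epithelial scale. For strain at 2M it was Slc4a2 (-0.245), and in BALB/c between 2M and 4M Slc12a2 (-0.253) and Kcnma1 (-0.102). In NOD.H-2b between 2M and 6M they were Ano1 (0.353), Kcnma1 (0.270), Slc4a4 (0.285) and Itpr3 (0.308). For strain by age between 2M and 6M they were Slc12a2 (0.461), Ano1 (0.372), Slc4a4 (0.190), Itpr3 (0.389) and Eif2b4 (0.171), and between 2M and 4M Aqp5 (0.518), Slc4a2 (0.486), Stim1 (0.471), Eif2b4 (0.471) and Ipo4 (0.406). The cause was not tested.

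Leaving out each mouse in turn gave 5 to 7 members called at 2M, 5 to 6 at 4M and 7 to 8 at 6M, and 59 to 67, 50 to 70 and 69 to 81 of the other fluid genes. In BALB/c it gave 1 to 3 between 2M and 4M, 1 to 1 between 4M and 6M and 1 to 2 between 2M and 6M, in NOD.H-2b 0 to 1, 0 to 0 and 3 to 5, and for strain by age 2 to 4 between 2M and 6M and 0 to 1 between 2M and 4M. Of 840 values of members under all settings, 781 kept direction and side of the threshold, 24 lost a call, 24 gained one and 11 reversed, where a sign change with no call on either side was not counted. Over all genes, the share called moved by more than 1.5 times on the epithelial scale at 2M (63.7% against 39.8%), in BALB/c between 2M and 4M (40.5% against 11.1%) and between 4M and 6M (16.6% against 0.307%), in NOD.H-2b between 4M and 6M (0.0111% against 0.00555%), and for strain by age between 2M and 6M (32.2% against 16.1%) and between 2M and 4M (43.9% against 1.67%). In BALB/c between 4M and 6M it moved from 0.307% to 2.99% with no filter, 3.74% in DESeq2 and 0.649% with 1 fit of 18 mice, and with 1 fit it was 4.71% between 2M and 4M and 3.54% between 2M and 6M. In NOD.H-2b between 4M and 6M it was 0.253% with no filter, 0.0111% with upper quartile factors, 1.03% in DESeq2, 3.3% with the replicate block and 3.91% with 1 fit of 18 mice. The block gave 1.73% between 2M and 4M and 25.3% between 2M and 6M in NOD.H-2b, and DESeq2 gave 6.25% for strain by age between 2M and 4M. With no filter, which tests more genes, it fell to 28.2% at 4M, 35.1% at 6M, 10.3% and 24.7% in NOD.H-2b between 2M and 4M and between 2M and 6M, and 7.22% and 1.08% for strain by age between 2M and 6M and between 2M and 4M. With at least 10 counts in every mouse it was 2.69% for strain by age between 2M and 4M. Counts of Cftr and Aqp4 were too low to show small differences.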

Other observations

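The 5 LRRC8 genes, whose proteins assemble the volume-regulated anion channel around the obligate subunit Lrrc8a, were read together after their values were seen. At 2M, 4M and 6M the log2 fold changes of NOD.H-2b over BALB/c were -1.09, -2.20 and -2.24 for Lrrc8b and -0.94, -1.88 and -2.90 for Lrrc8e, all called lower. Lrrc8c had 0.70, 1.62 and 2.27, all called higher. Lrrc8a had -0.17, -0.32 and -0.041 and Lrrc8d 0.22, -0.22 and -0.24, and neither was called at any age. Clca3a2, of the calcium-activated chloride channel regulator family, had 0 or 1 count in each BALB/c mouse and 8 to 301 counts in each NOD.H-2b mouse. It has near-identical paralogs, so its count is uncertain.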
